A study of Homo sapiens with 6 samples.

Results

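The genes of the proteasome were described across 6 expression arrays of the Hodgkin lymphoma cell line L1236. Members were the rows of the deposited table whose annotation named exactly 1 symbol starting with PSMA, PSMB, PSMC, PSMD, PSME or PSMF followed by a digit, with 1 row kept per symbol, the brightest on average. The rule found 43 members among 18605 genes. They comprised 15 subunits of the core, 2 immune subunits, 17 subunits of the cap, 3 assembly factors of the cap, 4 activators, 1 inhibitor and PSMC3IP, a recombination factor that carries the prefix without being a subunit. The symbol prefix chose the members, and this choice was made with earlier results of these data known. Of the 43, 38 passed the limit on dim genes that the tests used, and all counts are over those 38 unless stated.

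The proteasome is the protease that degrades proteins tagged with ubiquitin. Its barrel-shaped core is built of outer rings of alpha subunits, which gate the entrance, and inner rings of beta subunits, of which PSMB5, PSMB6 and PSMB7 carry the active sites. The cap binds the barrel's end: the ATPases of its base unfold substrates and the lid removes ubiquitin. Cells of the immune system, and others under interferon, replace the catalytic subunits with PSMB8, PSMB9 and PSMB10, which alters the peptides offered to T cells on class I molecules, and the activators PSME1 and PSME2 form an alternative cap. The transcription factor NRF1, encoded by NFE2L1, raises the subunit genes together when proteasome activity is short, and inhibition of the proteasome is used against several malignancies of B lineage.

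The 6 arrays held 1 group each: cells with leukotriene D4 (LTD4, a lipid mediator derived from arachidonic acid), with methanol, its vehicle, and without treatment, each at 8 h and 1 h. LTD4 was given at 100 nM and methanol at 0.1% in serum-free medium. The labels state neither the methanol content of the LTD4 cultures nor the medium in which the untreated cells were kept. L1236 is 1 established line, and no culture is stated to have been repeated, so a difference between 2 arrays has no test. The p-values of the fits rest on how these 6 arrays scatter, and that scatter may be technical. The design asks how LTD4 differs from both controls at each time. Of 7 genes listed as marks of Hodgkin lines, 4 lay above the limit on dim genes (CCL17, IRF4, CD40 and FSCN1), whereas TNFRSF8, which encodes CD30, ranged from 496 to 872, below it. CCL17 was close to the limit, at 1265 to 1523. None of the measured mature B cell, T cell or monocyte markers passed it. Of 3 endothelial markers 2 did, PECAM1 at 4190 to 5781 and CDH5. CDH5 passed on the methanol 1 h array only, at 1264, and lay between 543 and 1202 on the others.

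Values are linear intensities as deposited, and differences are on the log2(intensity + 16) scale. Tests were run on genes that reached 1263 on at least 1 array, the 95th percentile of 45 control probesets that match no human sequence, which 3584 genes did. The array medians were 41 to 60 for these control probesets and 154 to 228 for all probesets. A value below the limit is therefore no evidence that a gene was silent. Intensities of different genes depend on their probes and are not compared with each other. The arrays themselves were shifted against each other: the median difference of all tested genes was -0.10 for LTD4 minus methanol at 8 h and 0.11 at 1 h, and 0.27 for methanol minus untreated at 8 h and -0.21 at 1 h. Values given after centring have each array's median over the tested genes removed, and changes are read relative to that shift.

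Promoters are shown for 6 members whose array values are described in detail: the core subunits PSMB3, PSMA3 and PSMA6, the cap subunit PSMD2, the immune subunit PSMB9 and the activator PSME2. Each is the 250 bases before the annotated start, 5′ to 3′ on the gene's strand, from RefSeq on GRCh38.p14. Capitals mark matches on either strand to TGACNNNGC, the antioxidant-type element bound by NRF1, to GAAA followed by any 2 bases and GAAA, an element bound by interferon regulatory factors, or to CCAAT, the box bound by NF-Y. No marked matches overlapped in these 6 sequences.
PSMB3: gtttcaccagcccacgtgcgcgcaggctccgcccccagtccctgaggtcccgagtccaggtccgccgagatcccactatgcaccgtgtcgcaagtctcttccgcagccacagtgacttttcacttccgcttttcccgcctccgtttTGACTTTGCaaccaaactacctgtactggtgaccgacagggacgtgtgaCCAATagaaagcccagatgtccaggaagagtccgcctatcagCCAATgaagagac
PSMA3: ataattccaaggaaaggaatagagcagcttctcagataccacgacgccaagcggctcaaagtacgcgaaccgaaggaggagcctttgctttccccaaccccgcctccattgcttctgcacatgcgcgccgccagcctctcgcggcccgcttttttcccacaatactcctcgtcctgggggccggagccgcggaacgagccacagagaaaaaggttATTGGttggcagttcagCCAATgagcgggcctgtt
PSMA6: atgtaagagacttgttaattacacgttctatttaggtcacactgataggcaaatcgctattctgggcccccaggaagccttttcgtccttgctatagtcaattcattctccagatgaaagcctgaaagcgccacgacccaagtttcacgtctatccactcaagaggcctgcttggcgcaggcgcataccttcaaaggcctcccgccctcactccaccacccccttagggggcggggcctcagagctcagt
PSMD2: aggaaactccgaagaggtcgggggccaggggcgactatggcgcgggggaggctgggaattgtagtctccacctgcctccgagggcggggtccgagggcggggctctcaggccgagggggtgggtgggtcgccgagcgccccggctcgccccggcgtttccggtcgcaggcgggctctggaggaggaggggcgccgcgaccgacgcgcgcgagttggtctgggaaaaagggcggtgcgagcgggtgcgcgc
PSMB9: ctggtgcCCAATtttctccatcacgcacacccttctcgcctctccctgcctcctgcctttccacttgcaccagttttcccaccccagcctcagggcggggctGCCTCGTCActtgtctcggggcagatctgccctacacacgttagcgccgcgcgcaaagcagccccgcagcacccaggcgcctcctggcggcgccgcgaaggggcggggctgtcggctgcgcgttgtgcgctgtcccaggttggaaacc
PSME2: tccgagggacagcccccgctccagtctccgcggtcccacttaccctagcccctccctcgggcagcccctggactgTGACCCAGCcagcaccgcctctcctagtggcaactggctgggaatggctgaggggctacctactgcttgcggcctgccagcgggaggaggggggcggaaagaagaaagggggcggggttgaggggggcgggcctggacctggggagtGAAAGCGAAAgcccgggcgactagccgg
The windows lie at chr17:38752491-38752740 on the plus strand for PSMB3, chr14:58244593-58244842 on the plus strand for PSMA3, chr14:35292067-35292316 on the plus strand for PSMA6, chr3:184298991-184299240 on the plus strand for PSMD2, chr6:32853942-32854191 on the plus strand for PSMB9 and chr14:24146611-24146860 on the minus strand for PSME2.

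PSMB3 held TGACTTTGC at positions -104 to -96 from its start and 2 CCAAT boxes, and PSMB9 held the reverse complement of the same element, GCCTCGTCA, at -148 to -140. PSME2 held both TGACCCAGC, at -175 to -167, and GAAAGCGAAA, at -28 to -19. PSMA3 had CCAAT boxes in both orientations within 35 bases of its start, and neither PSMA6 nor PSMD2 matched any motif searched. A promoter was available for 38 of the 43 members, which are not the same 38 as those tested. They include PSMA8, PSMB5, PSMD5, PSMD9 and PSMC3IP, which were not tested. TGACNNNGC occurred in 9 of them (23.7%), PSMD5 and PSMD9 included, against 11.03% of 27305 promoters of the same length. CCAAT occurred in 17 members (44.7%), against 33.0% of all promoters, and the interferon-type element in 3 members (7.89%), against 3.07%. GCGTGGGCG, the site of the early-response factor EGR1, was in none of the 38 and in 0.71% of all promoters. A match describes the letters of this window and is no evidence of binding, and no promoter is shown here for PSMA7, PSMB1, PSMB6, PSMB7 or PSMD4.

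The 8 h array of LTD4-treated cells carried the highest value of the 6 arrays in 21 of the 38 members, where 20.3% of all tested genes did so. They included 9 of 13 core subunits, 10 of 17 cap subunits, 0 of 2 immune subunits and 1 of 4 activators. The immune subunits and activators are too few to set against the share of all tested genes. The untreated array at 8 h was the lowest of the 6 in 20 members, against 37.2% of all tested genes. These patterns were picked after the values had been seen and are descriptions of 6 single arrays. Each array averages a whole culture, so fewer cells with a transcript and less transcript per cell cannot be told apart.

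**Figure D1:**
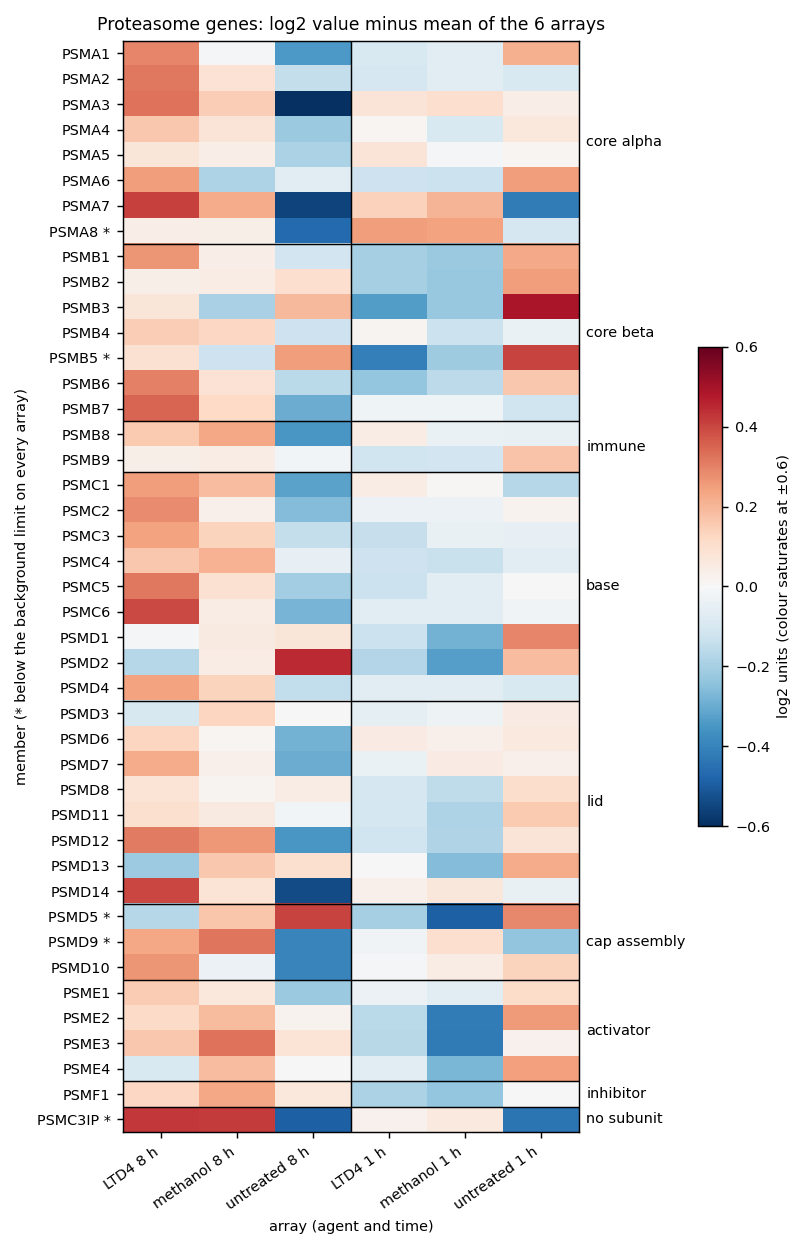
Deviation of each of the 43 proteasome genes from its own mean over the 6 arrays (colour, log2 units), with genes in rows grouped by class and arrays in columns. The LTD4 8 h column is the highest of the 6 in 21 of 38 tested members, and starred genes lay below the limit on dim genes on every array.

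Between LTD4 and methanol at 8 h, most core and cap subunits lay higher with LTD4. Of the 13 core subunits tested, 12 were above 0, with a median of 0.22, and all 7 alpha subunits were among them. Of the 17 cap subunits 12 were above 0, with a median of 0.07, while the 2 immune subunits were both below 0 and the 4 activators had a median of -0.12. Over all members 26 of 38 were above 0, whereas 30.1% of all tested genes were. After centring, 13 of 13 core, 14 of 17 cap, 2 of 2 immune and 2 of 4 activator genes were above 0, with medians of 0.31, 0.16, 0.05 and -0.03, and 32 of 38 members were, against 49.1% of all tested genes. The core median exceeded the cap median by 0.15, and by 0.12 to 0.15 under the other settings tried.

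None of these differences was large. No member reached 1.5-fold in either direction at 8 h, where 0.0279% of all tested genes were at least that much higher and 0.53% lower. Brighter genes sat higher in this comparison. With all tested genes divided into 3 equal parts by mean intensity, their median was -0.05 in the brightest, which held 28 of the 38 members, -0.11 in the middle and -0.13 in the dimmest, and the role of intensity in the members' difference was not tested. The additive fit of agent and time over all 6 arrays called no member for LTD4 minus methanol by limma with Benjamini-Hochberg adjustment (background 0% higher and 0% lower). In that fit 0 members had an unadjusted p below 0.05, beside 13 of all 3584 tested genes. The members' median was 0.06, beside 0.01 for all tested genes.

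PSMA6, an alpha subunit, showed the highest difference between LTD4 and methanol at 8 h. Its intensity at 8 h was 4262 with LTD4, 3153 with methanol and 3428 untreated, and at 1 h it was 3282 with LTD4, 3275 with methanol and 4273 untreated. The difference was 0.43 at 8 h and 0.00 at 1 h, and the LTD4 8 h array was level with the untreated 1 h array. Over both times the fit gave 0.22 (SE 0.22, adjusted p = 0.9999 by limma). After centring, LTD4 was higher for PSMA6 at 1 of 2 times only, with -0.11 at 1 h.

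PSMC6, an ATPase of the base, came next with 0.35 at 8 h and -0.00 at 1 h. Its intensity at 8 h was 3546 with LTD4, 2777 with methanol and 2218 untreated, and at 1 h it was 2565 with LTD4, 2570 with methanol and 2655 untreated. The LTD4 8 h array stood above the other 5, and the 3 arrays of 1 h were close to each other. A second row for this symbol lies on another chromosome and was not used.

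The lid subunit PSMD14, the metalloprotease that cuts ubiquitin chains from substrates, was 3730 with LTD4, 2992 with methanol and 1943 untreated at 8 h, and 2882 with LTD4, 2958 with methanol and 2736 untreated at 1 h. It again had LTD4 at 8 h as its highest array, and untreated at 8 h as its lowest. LTD4 minus methanol was 0.32 at 8 h and -0.04 at 1 h.

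PSMD13, another lid subunit, ran the other way. It was 1132 with LTD4, 1477 with methanol and 1409 untreated at 8 h, and 1317 with LTD4, 1099 with methanol and 1542 untreated at 1 h. LTD4 minus methanol was -0.38 at 8 h, the lowest of the members, and 0.26 at 1 h. Both the LTD4 8 h and the methanol 1 h value were below the limit on dim genes, and against the limit the sizes were at least 0.22 and 0.06. PSME4, which encodes the activator PA200, followed with -0.28 at 8 h and 0.21 at 1 h. Its methanol 1 h value was below the limit, and against the limit itself the 1 h difference was at least 0.11. It was 1338 with LTD4, 1627 with methanol and 1430 untreated at 8 h, and 1361 with LTD4, 1177 with methanol and 1698 untreated at 1 h, so its methanol array was the highest of the 8 h arrays and the lowest of the 1 h arrays.

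At 1 h the proteasome genes of LTD4-treated and methanol-treated cells were close. The members' median was 0.01 and 22 of 38 were above 0, against 82.1% of all tested genes. Core subunits had a median of -0.00 with 6 of 13 above 0, and cap subunits a median of 0.01 with 10 of 17 above 0. After centring, 1 of 13 core, 3 of 17 cap and 0 of 2 immune subunits were above 0, with medians of -0.11, -0.10 and -0.07, and 7 of 38 members were, against 50.4% of all tested genes. The sign for the core after centring was thus opposite at the 2 times, and the methanol arrays are part of both differences. No member reached 1.5-fold, where 0.725% of all tested genes were higher and 0.223% lower by that much. The 4 activators were the exception in direction, all above 0 with a median of 0.23, or 3 of 4 with a median of 0.12 after centring. PSME2 and PSMD13 were highest, both at 0.26, and PSMB3 and PSMC3, a base ATPase, were lowest, both at -0.10.

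**Figure D2:**
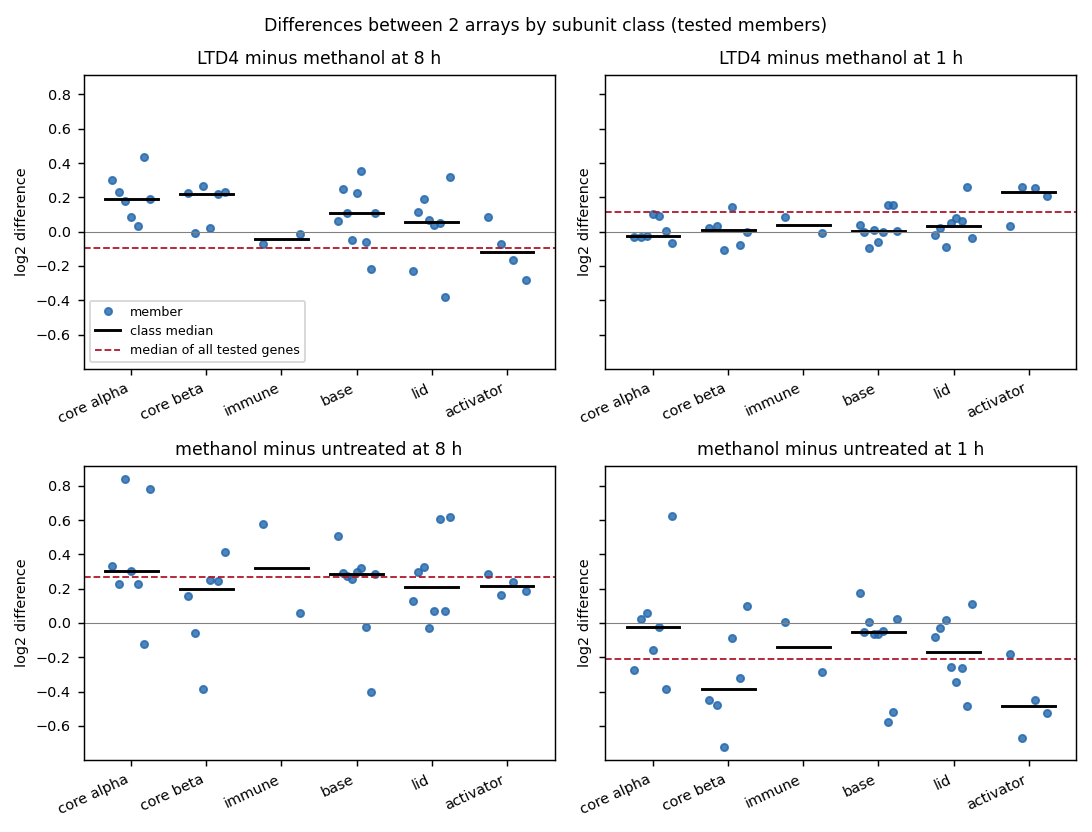
Log2 differences between 2 single arrays (vertical axis) for the tested members of 6 subunit classes (horizontal axis), with each class median as a black bar and the median of all 3584 tested genes as a dashed line. At 8 h LTD4 minus methanol is above 0 in 12 of 13 core genes and in 0 of 2 immune genes, or in 13 of 13 and 2 of 2 after centring.

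**Figure D3:**
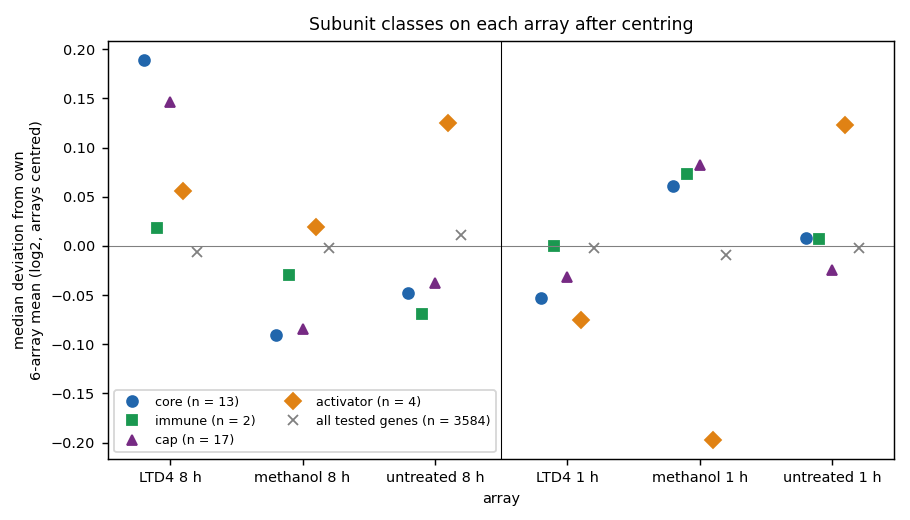
Median deviation of the core, immune, cap and activator genes from their own 6-array means on each array (log2 units, arrays centred), beside all tested genes. The core median is 0.19 on the LTD4 8 h array and between -0.09 and 0.06 on the other 5 arrays, and the activators are lowest, at -0.20, on the methanol 1 h array.

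The immune subunits differed little between LTD4 and methanol. PSMB8 and PSMB9 lie close together in the class II region of the major histocompatibility complex on chromosome 6. They are at chr6:32916471-32920690 on the minus strand and chr6:32929916-32935606 on the plus strand in the deposited annotation, which names no genome build. Each has 2 further rows, on alternative haplotypes of that region, with identical values, so their probes are shared. PSMB8 was 2924 with LTD4, 3078 with methanol and 2056 untreated at 8 h, and 2703 with LTD4, 2551 with methanol and 2541 untreated at 1 h. Its untreated 8 h array stood below the other 5, and LTD4 minus methanol was -0.07 at 8 h and 0.08 at 1 h. PSMB9 was 3696 with LTD4, 3728 with methanol and 3576 untreated at 8 h, and 3319 with LTD4, 3332 with methanol and 4071 untreated at 1 h. Here the untreated 1 h array stood above the other 5, and LTD4 minus methanol was -0.01 at both times. PSMB10, the remaining immune subunit, shares its row with the protease gene CTRL and was therefore not a member: that row read 526 with LTD4, 674 with methanol and 614 untreated at 8 h, and 526 with LTD4, 561 with methanol and 453 untreated at 1 h, all below the limit on dim genes.

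Of the constitutive catalytic subunits that PSMB8, PSMB9 and PSMB10 replace, PSMB6 and PSMB7 followed the core. PSMB7 was 6354 with LTD4, 5407 with methanol and 4055 untreated at 8 h, and 4888 with LTD4, 4898 with methanol and 4580 untreated at 1 h. PSMB6 was 2180 with LTD4, 1871 with methanol and 1576 untreated at 8 h, and 1498 with LTD4, 1580 with methanol and 1974 untreated at 1 h. In both genes the LTD4 8 h array was the highest of the 6, with LTD4 minus methanol at 0.23 for PSMB7 and 0.22 for PSMB6 at 8 h. PSMB5, the counterpart of PSMB8, was below the limit on every array, at 959 with LTD4, 824 with methanol and 1072 untreated at 8 h, and at 672 with LTD4, 773 with methanol and 1197 untreated at 1 h. At both times its untreated array read highest, and no difference is given since all its values were below the limit.

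**Figure D4:**
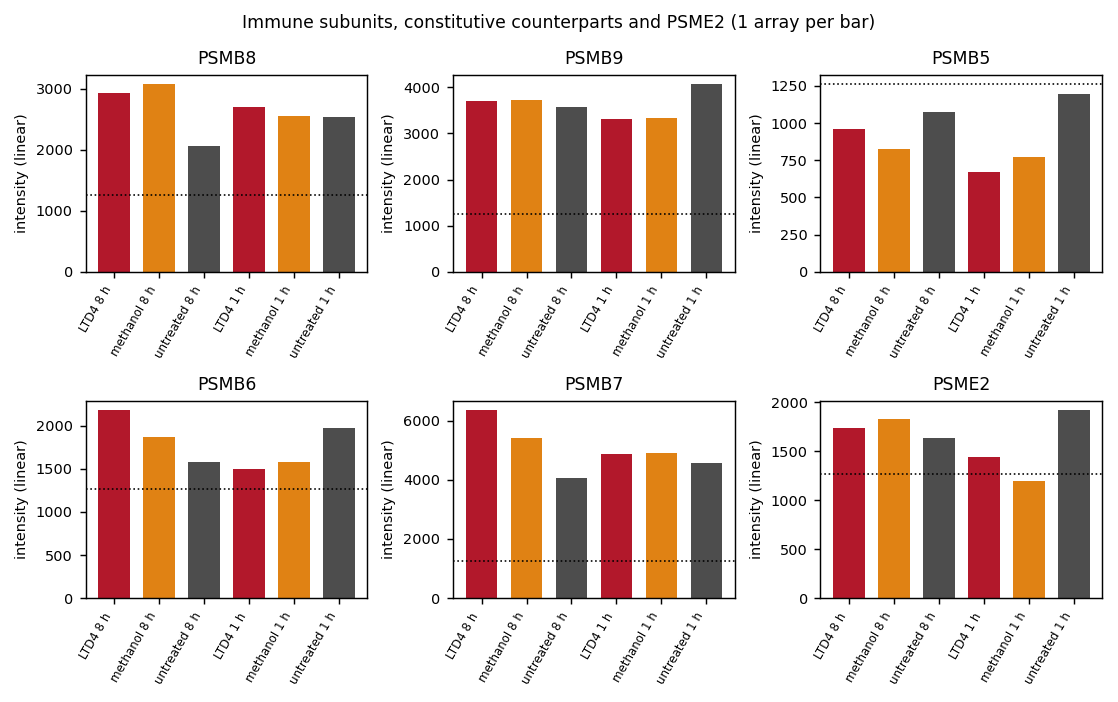
Linear intensity (vertical axis, 1 bar per array) of the immune subunits PSMB8 and PSMB9, of PSMB5, PSMB6 and PSMB7, which the immune subunits replace, and of the activator PSME2, with the limit on dim genes at 1263 dotted. LTD4 at 8 h is the tallest bar for PSMB6 and PSMB7 and not for PSMB8 or PSMB9, and PSMB5 stays under the limit on every array.

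Of the activators, which form other caps, PSME1 and PSME2 are the interferon-inducible pair. PSME2, a subunit of the activator PA28, was 1739 with LTD4, 1833 with methanol and 1632 untreated at 8 h, and 1436 with LTD4, 1197 with methanol and 1918 untreated at 1 h. The methanol 1 h array was the lowest of its 6 and lay below the limit on dim genes. PSME1, its partner subunit, was 1840 with LTD4, 1732 with methanol and 1419 untreated at 8 h, and 1615 with LTD4, 1579 with methanol and 1790 untreated at 1 h. PSME3, which encodes the nuclear activator PA28 gamma, was 3250 with LTD4, 3645 with methanol and 3081 untreated at 8 h, and 2588 with LTD4, 2163 with methanol and 2959 untreated at 1 h. All 4 activators were thus higher with methanol than untreated at 8 h (median 0.21) and lower at 1 h (median -0.49), while the medians of all tested genes were 0.27 and -0.21 in the same comparisons. After centring 1 of 4 was above 0 at either time, and the median was -0.07 at 8 h and -0.28 at 1 h. PSMF1, the proteasome inhibitor PI31, was 2324 with LTD4, 2507 with methanol and 2232 untreated at 8 h, and 1866 with LTD4, 1816 with methanol and 2132 untreated at 1 h. Its 8 h arrays all stood above its 1 h arrays.

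The only member called by a fit was PSMA7, an alpha subunit, which rose in LTD4-treated over untreated cells. It was 4014 with LTD4, 3521 with methanol and 2046 untreated at 8 h, and 3324 with LTD4, 3480 with methanol and 2252 untreated at 1 h. Both untreated arrays lay below the other 4 without overlap. LTD4 minus untreated over both times was 0.76 (SE 0.22, limma adjusted p = 0.0275, higher at 2 of 2 times). PSMA7 was 1 of 38 members called in this comparison, all higher, where 2.32% of all tested genes were called higher and 0.446% lower. The difference of methanol minus untreated was 0.70 (SE 0.22), and its adjusted p of 0.0648 by limma missed the threshold of 0.05. Both comparisons use the same untreated arrays. Across 15 settings the adjusted p of PSMA7 for LTD4 minus untreated ranged from 0.00280 to 0.9998 and passed in 11. It did not pass with an intensity trend (0.101), without LTD4 1 h (0.478), without LTD4 8 h (0.9998) or without untreated 8 h (0.154).

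No member was called for methanol minus untreated, where 1.9% of all tested genes were called higher and 0.363% lower. An unadjusted p below 0.05 by limma was found for 4 of 38 members, beside 377 of all 3584 tested genes. After centring, limma called 3 members in this comparison, against a background of 5.66% higher and 5.44% lower, and these 3 also for LTD4 minus untreated, which shares the untreated arrays, against 6.95% and 6.5%. They were PSMA7, higher by 0.66 for methanol (adjusted p = 0.0108) and by 0.72 for LTD4 (adjusted p = 0.00784), and 2 genes that were lower, PSMB3 and PSMD2.

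PSMB3, a beta subunit without an active site whose promoter is shown above, was 4323 with LTD4, 3595 with methanol and 4703 untreated at 8 h, and 3259 with LTD4, 3504 with methanol and 5784 untreated at 1 h. The untreated arrays were the 2 highest of the 6. Methanol minus untreated was -0.55 (SE 0.22, adjusted p = 0.237 by limma), or -0.59 after centring (adjusted p = 0.0247). PSMD2, a scaffold protein of the base like PSMD1, was 1381 with LTD4, 1606 with methanol and 2126 untreated at 8 h, and 1379 with LTD4, 1234 with methanol and 1773 untreated at 1 h. Its methanol 1 h value was just below the limit, its untreated arrays were again the 2 highest, and methanol minus untreated was -0.46 (SE 0.22, adjusted p = 0.433 by limma), or -0.50 after centring (adjusted p = 0.0421). PSMB2 and PSMD1 had the same order, so that 4 members had both untreated arrays above the other 4, where 10.2% of all tested genes did. PSMA3, PSMA7, PSMB7, PSMB8, PSMC1, PSMD14 and PSMD4 had both untreated arrays below the other 4, against 15.8% of all tested genes. Both counts were near the background.

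**Figure D5:**
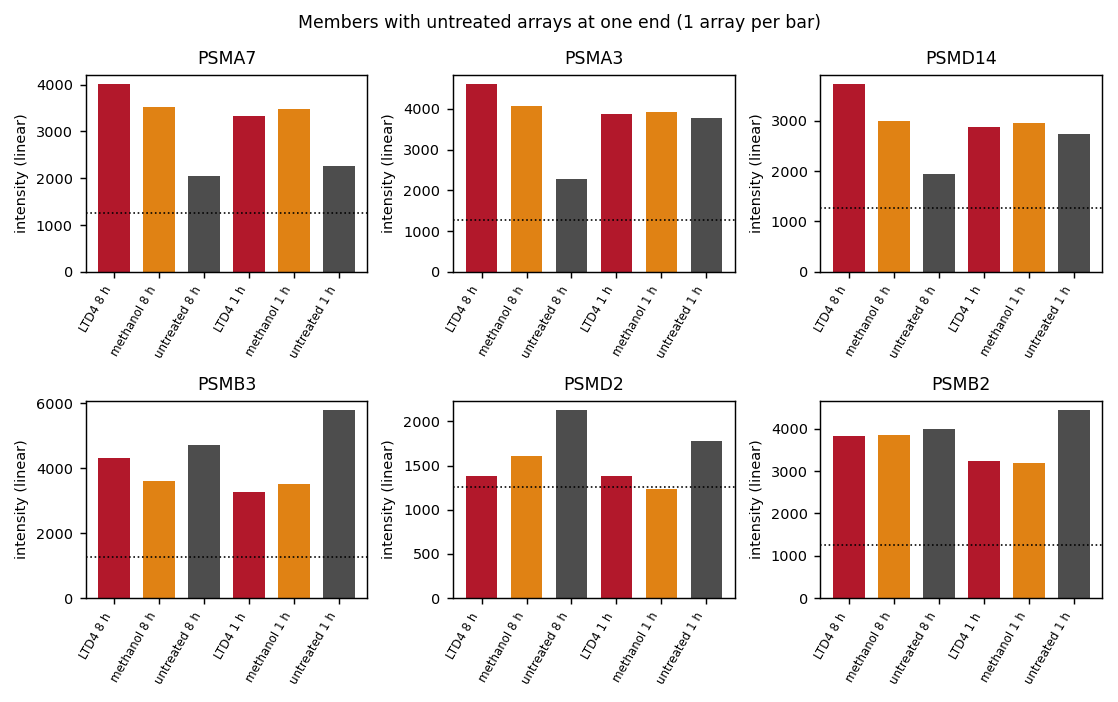
Linear intensity (vertical axis, 1 bar per array) of 3 members with both untreated arrays below the other 4 (PSMA7, PSMA3, PSMD14) and of 3 with both above (PSMB3, PSMD2, PSMB2), with the limit on dim genes dotted. Untreated PSMA7 reads 2046 at 8 h and 2252 at 1 h, against 3324 to 4014 on the other arrays.

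Single pairs of arrays with untreated cells gave greater folds among the members than LTD4 against methanol did. Methanol was above untreated in 32 of 38 members at 8 h, against 83.7% of all tested genes, and in 10 of 38 at 1 h, against 22.2%. For methanol against untreated at 8 h, 4 members were at least 1.5-fold higher and none lower, where 15.1% of all tested genes were higher and 0.307% lower: PSMA3 at 0.84, PSMA7 at 0.78, PSMD14 at 0.62 and PSMD12, a lid subunit, at 0.61. After centring none of the members was that much higher, and PSMB3 at -0.67 and PSMD2 at -0.68 were lower. The background was then 4.13% higher and 2.04% lower. At 1 h, without centring, PSMA7 was higher by 0.62, and PSMB3 at -0.72 and PSME2 at -0.67 were lower, against a background of 1.65% higher and 8.09% lower. For PSME2, whose methanol value was below the limit, the size against the limit was at least 0.60. PSMA3, an alpha subunit, was 4615 with LTD4, 4076 with methanol and 2273 untreated at 8 h, and 3874 with LTD4, 3936 with methanol and 3777 untreated at 1 h. Its low value was thus the untreated 8 h array, and the 3 arrays of 1 h nearly coincided. PSMD12 was 2333 with LTD4, 2248 with methanol and 1470 untreated at 8 h, and 1727 with LTD4, 1652 with methanol and 1982 untreated at 1 h, with the untreated array lowest at 8 h and highest at 1 h.

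LTD4 against untreated cells at 8 h, which uses the same low untreated array, had 8 members at least 1.5-fold higher and 1 lower, against 13.5% and 0.893% of all tested genes. In all, 31 of 38 members were above 0, against 69.7%. Beside the 4 named for methanol, at 1.02 for PSMA3, 0.97 for PSMA7, 0.93 for PSMD14 and 0.66 for PSMD12, these were PSMC6 at 0.67, PSMD10 at 0.66, PSMB7 at 0.65 and PSMA1 at 0.64. The untreated value of PSMD10 was below the limit, against which the difference was at least 0.65. PSMD2 was lower at -0.62. After centring 3 members were at least 1.5-fold higher and 1 lower, where 6.17% of all tested genes were higher and 3.15% lower, so the members' shares were near the background. At 1 h 9 of 38 members were above 0, against 34.7%. At that time PSMB3 alone passed, at -0.82, against 2.04% higher and 2.62% lower, and PSMB2 came next at -0.45. PSMD10, the assembly factor and oncoprotein gankyrin, was 1986 with LTD4, 1611 with methanol and 1250 untreated at 8 h, and 1636 with LTD4, 1702 with methanol and 1813 untreated at 1 h. PSMA1, an alpha subunit, was 4799 with LTD4, 3886 with methanol and 3080 untreated at 8 h, and 3671 with LTD4, 3748 with methanol and 4530 untreated at 1 h. In both genes LTD4 was the highest and untreated the lowest array at 8 h, and untreated was the highest at 1 h.

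No member was called between 8 h and 1 h over the 3 agents. In the fit 0 of 38 members passed the adjusted threshold, where 0.949% of all tested genes were higher and 0.809% lower. An unadjusted p below 0.05 by limma was found for 1 member, beside 292 of all 3584 tested genes. The members' median was 0.08, beside 0.10 for all tested genes, with values from -0.14 to 0.38. PSME3 had the lowest adjusted p, 0.545 by limma, with 0.38 (SE 0.18, higher at 8 h in 3 of 3 agents).

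Within the agents the members' course from 1 h to 8 h was not alike. With LTD4, 34 of 38 members were higher at 8 h, against 70.7% of all tested genes, and 31 of 38 after centring, against 50.5%, with a core median of 0.26. With methanol, 34 of 38 were also higher, but against 92.4% of all tested genes, and after centring 9 of 38 were, against 51.2%, with 0 of 13 core subunits above 0 and a core median of -0.18. In untreated cells 34 of 38 were lower at 8 h, against 75.8% of all tested genes, including 13 of 13 core subunits. After centring 24 of 38 were lower, against 47.7%, with 9 of 13 core subunits below 0 and a core median of -0.12. No member reached 1.5-fold with LTD4, against 2.2% higher and 0.725% lower. With methanol PSME3 at 0.75 and PSME2 at 0.61 were higher by that much, against 10.4% and 0.921%, though PSME2 stood against a 1 h value below the limit, where its size was at least 0.53. In untreated cells PSMA3 was lower at -0.73, against 0.446% higher and 5.16% lower. The members highest with LTD4 were PSMB6 at 0.54 and PSMB1 at 0.47, and the lowest were PSMD13 at -0.22 and PSMD3 at -0.04. No test of the difference between these courses was possible with 1 array each.

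Among the remaining members, PSMA8, the alpha subunit of testis, lay between 376 and 629 and the assembly factors PSMD5 and PSMD9 between 427 and 940 on all arrays, below the limit, as did PSMC3IP. PSMC1, a base ATPase, was read from a row on chromosome 3, while RefSeq places the gene on chromosome 14. That row and the dimmer row on chromosome 14 had the same sign in 9 of 9 comparisons of 2 arrays. The other tested members not named with values stayed within 1.5-fold in every comparison of 2 arrays.

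Genes that build or serve the proteasome gave no call in any of the 4 fits, over 4 of 5 tested assembly chaperones, 6 of 8 proteasome-associated factors, 12 of 13 shuttle and ubiquitin genes, 3 of 4 regulators and 4 of 9 genes of class I presentation. POMP, the chaperone that matures the core, was 2950 with LTD4, 2594 with methanol and 1954 untreated at 8 h, and 2317 with LTD4, 2069 with methanol and 2334 untreated at 1 h. Like 9 of the core subunits it had LTD4 at 8 h as its highest array, and LTD4 minus methanol was 0.18 at 8 h and 0.16 at 1 h. SEM1, a small lid subunit outside the symbol rule, was 4229 with LTD4, 3531 with methanol and 2436 untreated at 8 h, and 3099 with LTD4, 3006 with methanol and 3095 untreated at 1 h. Its LTD4 8 h array was also the highest, with LTD4 minus methanol at 0.26 at 8 h. It was the highest of the proteasome-associated factors, of which 2 of 6 were above 0 with a median of -0.16, and USP14, a deubiquitinase of the cap, stood at -0.27 and ADRM1, a ubiquitin receptor of the cap, at -0.26.

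The regulators lay on the side of most tested genes. NFE2L1, which encodes NRF1, was 1490 with LTD4, 1762 with methanol and 1770 untreated at 8 h, and 1366 with LTD4, 1248 with methanol and 1658 untreated at 1 h. LTD4 minus methanol was -0.24 for NFE2L1 at 8 h and 0.13 at 1 h, and its methanol 1 h value was just below the limit. All 3 tested regulators were below 0 at 8 h and above 0 at 1 h, as were 69.9% and 82.1% of all tested genes. Of the genes of class I presentation, TAP1, a peptide transporter, had LTD4 minus methanol of -0.08 at 8 h and 0.07 at 1 h. B2M, the light chain of class I molecules, stood at 0.27 and 0.17 at those times. After centring, limma called 1 of 4 assembly chaperones, PSMG3, higher in both comparisons with untreated cells. It called NPLOC4 and VCP, of 12 shuttle and ubiquitin genes, and TAPBP, of 4 class I genes, lower in both. UBA1 was called lower for LTD4 only, and the difference between the 2 comparisons for UBA1 was not tested. No proteasome-associated factor or regulator was called. Of all tested genes, 5.66% were called higher and 5.44% lower for methanol, and 6.95% and 6.5% for LTD4.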

How the data were processed

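Total RNA of 6 samples was hybridised to 1 array each. The deposited table holds linear intensities for 33297 probesets. RMA and Affymetrix Expression Console are named per the submitters' processing notes, with no version, while the table is named for another summary method, so how the intensities were normalized is not known. The fold score columns the authors deposited matched the signed quotient of both intensities in 199433 of 199433 values (relative tolerance 1e-06) and were not used. A second deposited value table was identical in 199782 of 199782 intensities. No header or label names the genome build of the coordinates.

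Of the probesets, 19479 named 1 symbol, 1032 several and 12786 none. Symbols were matched through Entrez identifiers to GRCh38.p14 for 19085, and the brightest row per symbol was kept, giving 18605 genes. Members were chosen on the symbols of the files. Values were analysed as log2(intensity + 16). Genes were tested when the highest array reached the 95th percentile of 45 antigenomic probesets (10.32 on the log2 scale). This left 3584. The additive model of agent and time was fitted with limma 3.58.1 in R 4.3.3 over all 6 arrays, with 2 residual degrees of freedom and Benjamini-Hochberg adjustment over all tested genes at 0.05. It was checked on simulated data. In the main fit the spread was estimated as equal for all genes (SE 0.18 for time, 0.22 between agents). After centring it differed by gene and was smaller. The members' SE was then 0.09 to 0.12 for time and 0.11 to 0.15 between agents. Pairs of arrays had no test and counted at 1.5-fold. The number of arrays limits the precision.

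Named with values were the immune subunits and their counterparts, PSME1, PSME2, PSMF1, up to 10 further members past a threshold, the 2 highest and 2 lowest members of each comparison, and up to 3 genes of each other list. The members, classes and lists were chosen with earlier results of these data known. Alternatives were the second table, 1 or 64 as offset, no filter, a mean-based filter, quantile normalization, centring, an intensity trend, leaving out each array, a 2-fold limit, the median over all rows of a symbol and, chosen after seeing the data, another row for PSMC1. Promoters were the 250 bases before each start in the RefSeq table.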

Additional observations from a re-analysis of the deposited data

Results flagged for a closer look

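In 7 results a member lay on opposite sides of its control at the 2 times and the difference between the times exceeded 1.5-fold. The difference was not tested, since each group is 1 array. For LTD4 minus methanol this held for the lid subunit PSMD13, at -0.38 at 8 h and 0.26 at 1 h, a difference of -0.64 on the log2 scale. Of all tested genes, 6.42% met the conditions in this direction. Both the LTD4 8 h and the methanol 1 h value of PSMD13 were below the limit on dim genes. For methanol minus untreated it held for 6 members, all higher at 8 h and lower at 1 h, as did 27% of all tested genes. After centring PSME2, PSME3, PSME4 and PSMB1 lay on the same side at both times. PSMD12 stood at 0.61 and -0.26, a difference of 0.87. PSME2 stood at 0.17 and -0.67, a difference of 0.84. PSME4 stood at 0.18 and -0.52, a difference of 0.71. PSME3 stood at 0.24 and -0.45, a difference of 0.69. PSMA1 stood at 0.33 and -0.27, a difference of 0.61, and PSMB1 at 0.16 and -0.45, a difference of 0.60. The methanol 1 h values of PSME2 and PSME4 were below the limit. The median of all tested genes for methanol minus untreated was 0.27 at 8 h and -0.21 at 1 h. None of the 7 met both conditions after centring. Among the members PSMA6 alone then did, at 0.52 at 8 h and -0.11 at 1 h for LTD4 minus methanol. Of all tested genes, 2.12% met both in the direction of PSMA6 after centring.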

How the results depend on the processing

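Counts of members moved with the scaling, the filter, the fold limit and single arrays, and the cause was not tested. For methanol minus untreated the fit called 0 members, against 2 with no filter or with the filter on the mean and 3 after quantile normalization or centring, and leaving out each array gave 0 to 3. For LTD4 minus untreated it called 1, against 2 with no filter or with the filter on the mean, 3 after quantile normalization or centring and 0 with an intensity trend, and leaving out each array gave 0 to 4. Without untreated 1 h the 4 were PSMA7, PSMA3, PSMD14 and PSMD12, beside 422 of all 3584 tested genes. For 8 h minus 1 h leaving out each array gave 0 to 1 (PSME3, without either untreated array), and for LTD4 minus methanol 0 in every case. Members past 1.5-fold for methanol minus untreated at 1 h numbered 3, and 5 with no filter or the filter on the mean. They numbered 1 after quantile normalization or centring and 0 at 2-fold, where 0.586% of all tested genes were higher and 0.558% lower. Of all genes, 10.4% were higher and 3.61% lower with no filter, and 3.43% and 1.73% after centring. At 8 h the members numbered 4, all higher. After centring they numbered 2 other members, PSMB3 and PSMD2, both lower. At 2-fold they numbered 0, where 2.15% of all tested genes were higher and 0.167% lower. After centring 4.13% of all tested genes were higher and 2.04% lower. For LTD4 minus untreated at 1 h 1 member became 2 with no filter, the filter on the mean, quantile normalization or centring, and 0 at 2-fold. The shares of all genes were 5.42% higher and 1.42% lower with no filter, 3.21% and 1.37% after centring, and 0.614% and 0.335% at 2-fold. At 8 h 9 members became 4 after quantile normalization or centring and 1 at 2-fold. The shares of all tested genes were 6.17% higher and 3.15% lower after centring, and 2.62% and 0.112% at 2-fold. Between 8 h and 1 h, 2 members with methanol and 1 untreated became 0 after quantile normalization or centring and at 2-fold. After centring 1.34% of all tested genes were higher and 2.26% lower with methanol, and 1.03% and 1.7% untreated. At 2-fold the shares were 1% and 0.251% with methanol, and 0.112% and 0.642% untreated. Genes called for methanol minus untreated numbered 81 of 3584 tested, 1676 of 18605 with no filter and 598 of 11267 with the filter on the mean. Over the 3584 genes they numbered 377 after quantile normalization and 398 after centring. For LTD4 minus untreated they numbered 99 of 3584, 921 of 18605 with no filter and 454 of 11267 with the filter on the mean. Again over 3584, they numbered 437 after quantile normalization, 482 after centring and 39 with an intensity trend. With no filter all 43 members were included. The fitted differences of PSMA7, PSMB3 and PSMD2 with untreated cells kept their sign under all alternatives run. The members' median did not: after centring it was -0.03 in place of 0.25 for methanol minus untreated at 8 h, 0.08 in place of -0.12 at 1 h, -0.10 in place of 0.01 for LTD4 minus methanol at 1 h and -0.15 in place of 0.17 for 8 h minus 1 h with methanol. No paired analysis was possible because each group holds 1 array and the labels give no replicate numbers. The additive fit itself compares agents within each time.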
